A study of Homo sapiens with 24 samples.

Results

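The change in gene expression that followed ERG was measured in SW13 cells carrying a mutant BRG1, in 4 of the 24 libraries of the series. SW13 is an established human line that the labels describe as an adrenocortical carcinoma line. The 4 libraries were chosen by their titles, as 2 libraries of BRG1-K785R ERG and 2 of BRG1-K785R Empty, and all genes of these libraries were described. The BRG1-K785R ERG cells carried a V5-tagged BRG1-K785R construct and a V5-tagged ERG construct. The BRG1-K785R Empty cells carried the same mutant construct and the empty vector. For comparison, 4 libraries carried V5-tagged BRG1 (BRG1 ERG and BRG1 Empty) and 4 a control construct (GFP ERG and GFP Empty), which makes 12 SW13 libraries in 6 groups of 2. The control is GFP in the titles but a luciferase construct in the protocol, and it is called GFP below. All 12 cultures were infected with lentivirus for 48 h and selected for 2 days with blasticidin and puromycin together, and polyA RNA was read as 75-base single-end reads. The duplicates came from independent infections, selections and cultures of 1 line. The constructs are overexpressed in a line with little BRG1 of its own, so the levels of ERG and BRG1 are those of the vectors.

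ERG is a transcription factor of the ETS family, which binds DNA around the letters GGAA, and it is normally prominent in endothelial cells. In prostate cancer it is often overexpressed through the TMPRSS2-ERG fusion, and the title of the series concerns the binding of that fusion product to BAF complexes. BRG1, the product of SMARCA4, is an ATPase of the BAF (SWI/SNF) complexes, which use ATP to move nucleosomes and open chromatin. K785R replaces a lysine of the ATP-binding site, and such mutants can join the complex but lack the ATPase activity. Libraries with the mutant therefore address what ERG does to gene expression where the BAF complex is present without a working BRG1 ATPase.

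The level of a gene is given as CPM, its read count relative to the library size, which was first scaled by TMM, edgeR's scaling method. Values of a pair of libraries are listed as replicate 1 and then replicate 2. Log2 changes are ERG over Empty, their standard errors (SE) are approximate, and adjusted p-values are from edgeR's quasi-likelihood F test with Benjamini-Hochberg adjustment over all 17018 genes tested. A gene is said to have risen or fallen where the adjusted p is under 0.05. With 2 libraries per group, the spread between replicates rests mainly on the estimate shared by all 12 libraries, which left 6 residual degrees of freedom. The groups differed in that spread. Chi-square per degree of freedom between a group's 2 libraries was 2.323 in GFP ERG and 3.965 in BRG1 Empty. It was 6.789 and 7.649 in BRG1-K785R ERG and Empty, 11.37 in BRG1 ERG and 13.8 in GFP Empty. A shared estimate may thus understate the spread in BRG1 ERG and GFP Empty. The BRG1-K785R ERG libraries held 19754265 and 19782432 reads on genes, the BRG1-K785R Empty libraries 26595972 and 22093960, and the other 8 SW13 libraries 22450724 to 26585914. In bulk RNA, fewer cells that express a gene and less of its RNA per cell cannot be told apart.

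The 2 BRG1-K785R Empty libraries stood apart from the other 10 in their RNA composition. The ribosomal precursor RNA45S5 took 0.368% and 0.441% of reads with ERG, against 1.98% and 2.64% with Empty, and 0.294% to 1.25% in the other 8 libraries. The 10 MTRNR2L genes, which resemble the mitochondrial large ribosomal RNA and one another so closely that their reads are uncertain, took 0.272% and 0.324% with ERG, against 0.0189% and 0.0205% with Empty, and 0.107% to 0.498% elsewhere. MALAT1, an abundant RNA kept in the nucleus, was at 994 and 1260 CPM with ERG, against 88.8 and 94.2 CPM with Empty, and 808 to 2000 CPM elsewhere. RMRP, a small RNA of the nucleolus, ran the other way, with 0.297 and 0.191 CPM in ERG libraries against 14.4 and 13.3 CPM in Empty libraries and at most 1 CPM elsewhere. These RNAs were singled out after their values were seen. The 484 tested genes with a length of 500 bases or less had a median log2 change of 0.58, against -0.13 beside BRG1 and -0.02 beside GFP. Composition and group cannot be told apart here, because both Empty libraries differ from both ERG libraries. Gene lists and most named genes are therefore also given against the GFP Empty libraries, a comparison added after seeing the data. It leaves out the 2 Empty libraries in question but adds the presence of the mutant itself to the contrast. The 2 GFP Empty libraries also differed from each other in composition, with RNA45S5 at 0.294% and 1.25% of reads.

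**Figure D1:**
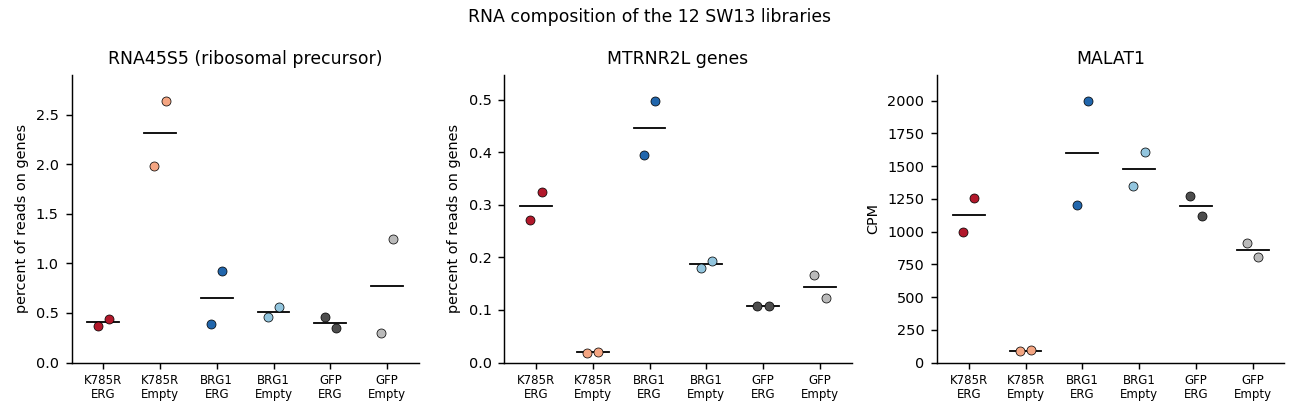
RNA composition of the 12 SW13 libraries, with 1 point per library and a line at the mean of each group. The panels show RNA45S5 and the MTRNR2L genes as percent of the reads on genes, and MALAT1 in CPM. The BRG1-K785R Empty libraries are the highest in RNA45S5 (1.98% and 2.64%) and the lowest in the MTRNR2L genes and MALAT1 (88.8 and 94.2 CPM).

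ERG and SMARCA4 checked the labels. ERG was at 1573 and 1498 CPM in BRG1-K785R ERG libraries (mean 1535 ± 53.5, SD, n = 2), against 0 reads in both BRG1-K785R Empty libraries. With a floor of 3 reads per Empty library, ERG was at least 11200-fold higher (adjusted p = 1.66e-32). ERG averaged 1953 CPM in BRG1 ERG libraries and 1528 CPM in GFP ERG libraries, so the mutant libraries carried ERG close to the level of the control. SMARCA4 was at 1385 and 1350 CPM in BRG1-K785R ERG libraries, against 2395 and 2226 CPM in BRG1-K785R Empty libraries. The groups did not overlap, and SMARCA4 fell by 0.76 on the log2 scale (SE 0.0772, adjusted p = 6.88e-10). Beside BRG1 it averaged 2059 CPM with ERG and 2055 CPM with Empty, and beside GFP 34.0 CPM with ERG and 29.5 CPM with Empty. The ERG effect on SMARCA4 differed from that beside BRG1 by -0.76 (adjusted p = 1.02e-06). The mutant was thus not at the same level in the groups compared, and the part of that difference in the results was not tested. Reads of the construct and of the cell's own SMARCA4 are counted together.

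Marker genes gave the line little of an adrenocortical pattern. Of 15 adrenocortical markers, 8 had enough reads to be tested, and CYP11B1, CYP11B2, HSD3B2 and MC2R were at 0 reads in all 4 mutant libraries. The list summed to 141 and 136 CPM with ERG, against 169 and 161 CPM with Empty, nearly all of it from FDX1, SCARB1 and CYP21A2, which are also used outside the adrenal (SCARB1, FDX1) or have a near-identical pseudogene (CYP21A2). Of 15 prostate luminal markers, 14 were found and 7 tested, with sums of 51.3 and 48.8 CPM with ERG against 45.6 and 43.1 CPM with Empty.

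ERG beside BRG1-K785R was followed by changes in 9563 genes, 56.2% of those tested. Of these, 4309 rose (25.3%) and 5254 fell (30.9%). Most changes were small. At least a 2-fold change was called for 1300 genes that rose (7.64%) and 614 that fell (3.61%). The shares of 25.3% and 30.9% are the background for the counts of list members that rose or fell beside the mutant, and the median change of all genes tested was -0.01. The direction split depends on the scaling. Of the called genes, 45.1% were higher under TMM, 47.1% under DESeq2's scaling method (RLE), and 64.6% with library totals as the scale, which moved the median of all genes by 0.18. Against the GFP Empty libraries, 3864 genes were higher (22.7%) and 3888 lower (22.8%), the background for list counts in that comparison. Of the genes higher against the mutant's own Empty libraries, 1529 (35.5%) were also higher against GFP Empty. Of those lower, 1873 (35.6%) were also lower. Of all 9563 genes, 5045 were called in both comparisons, and the others among these 5045 were called in opposite directions. These 2 comparisons share the ERG libraries.

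**Figure D2:**
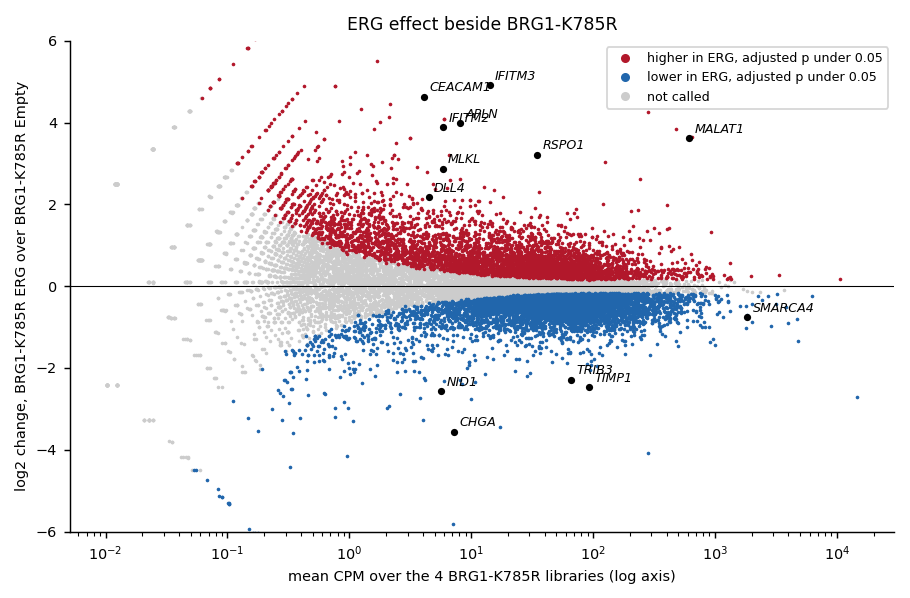
Log2 change, BRG1-K785R ERG over BRG1-K785R Empty, against the mean CPM over the 4 mutant libraries on a log axis. Each point is a gene, red where higher with ERG and blue where lower at an adjusted p under 0.05, with 19 genes beyond the axis limit of 6 left out. IFITM3, CEACAM1, IFITM2 and APLN lie at the top, and CHGA lies lowest among the genes marked.

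The genes with the steepest rises at a level of at least 5 CPM included the IFITM genes, which encode small interferon-induced membrane proteins that block the entry of viruses into cells. IFITM3 was at 28.6 and 26.1 CPM in BRG1-K785R ERG libraries, against 0.909 and 0.889 CPM in BRG1-K785R Empty libraries. It rose by 4.92 on the log2 scale (SE 0.169, adjusted p = 6.01e-21), and by 5.25 against GFP Empty. IFITM2 was at 11.5 and 10.6 CPM with ERG, against 0.744 and 0.741 CPM with Empty (log2 change 3.88, adjusted p = 2.89e-15, and 4.98 against GFP Empty). IFITM1 was at 2.47 and 2.29 CPM with ERG, against 0.0413 and 0.198 CPM with Empty, the Empty values resting on 1 and 4 reads. In all 3 genes the ERG libraries lay far above the Empty libraries without overlap. The 3 genes are close relatives in 1 cluster, so reads of shared sequence may be split between them. Beside BRG1, IFITM3 started higher, averaging 102 CPM with ERG and 36.2 CPM with Empty, and beside GFP it averaged 3.90 CPM with ERG and 0.722 CPM with Empty. The ERG effect on IFITM3 beside the mutant was larger than beside BRG1 by 3.42 (adjusted p = 6.71e-14) and larger than beside GFP by 2.47 (adjusted p = 4.74e-06).

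The bases just upstream of IFITM1 and IFITM3 are shown because these neighbours rose together and interferon elements and ETS cores can be read in them. The sequences are the 250 bases before the annotated start, 5′ to 3′ on the gene's strand, from RefSeq on GRCh38.p14, with GGAA or its complement TTCC in capitals.
IFITM1, chr11:313790-314039, plus strand: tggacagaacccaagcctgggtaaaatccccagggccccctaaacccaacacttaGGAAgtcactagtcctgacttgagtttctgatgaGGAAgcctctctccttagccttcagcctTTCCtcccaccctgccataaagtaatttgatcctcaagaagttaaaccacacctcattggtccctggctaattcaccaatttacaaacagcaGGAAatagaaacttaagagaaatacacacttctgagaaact
IFITM3, chr11:320861-321110, minus strand: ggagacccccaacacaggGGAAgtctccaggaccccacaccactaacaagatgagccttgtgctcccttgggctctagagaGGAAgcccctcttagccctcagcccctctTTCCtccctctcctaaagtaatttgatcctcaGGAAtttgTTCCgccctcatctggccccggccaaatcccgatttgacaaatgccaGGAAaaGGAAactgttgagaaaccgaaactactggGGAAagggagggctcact
The IFITM1 window held 4 matches to GGAA on either strand and the IFITM3 window held 8. The letters GAAANNGAA, a short form of the interferon response element searched on both strands, matched once in IFITM1 (gaaatagaa, 40 bases before the start) and at 2 places in IFITM3 (gaaaaggaa, 52 bases before the start, and gaaaccgaa, 35 bases before it). The match in IFITM1 and the first in IFITM3 overlap GGAA matches, while gaaaccgaa overlaps none. GAAANNGAA was in 7.06% of all such windows, in 5.48% of those of genes tested, in 5.46% of those of genes that rose and in 5.63% of those of genes that fell. GGAA or TTCC was in 92.8% of all windows, 91.5% for genes that rose and 93.2% for genes that fell. The longer form CCGGAA was in 23% of the windows of genes tested, 20.2% for genes that rose and 29.9% for genes that fell. A match of letters describes the window and shows no binding.

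Other steep rises were in single genes of varied function. CEACAM1, an adhesion receptor, was at 8.02 and 7.83 CPM in BRG1-K785R ERG libraries, against 0.165 and 0.494 CPM in BRG1-K785R Empty libraries (log2 change 4.63, SE 0.266, adjusted p = 2.17e-15). Its Empty values rest on 4 and 10 reads. Against GFP Empty CEACAM1 was higher by 3.02. Beside BRG1, CEACAM1 averaged 117 CPM with ERG and 9.76 CPM with Empty. APLN, the peptide ligand apelin that acts in vessel growth, was at 15.2 and 15.5 CPM with ERG, against 0.867 and 1.09 CPM with Empty (log2 change 3.98, SE 0.205, adjusted p = 1.57e-16). It was higher by 3.61 against GFP Empty. MLKL, which carries out necroptosis, was at 10.7 and 9.79 CPM with ERG, against 1.36 and 1.43 CPM with Empty (log2 change 2.87, adjusted p = 3.51e-13, and 2.35 against GFP Empty), and its ERG effects beside BRG1 (2.45) and GFP (2.18) were not called different from it (adjusted p = 0.231 and 0.0713). RSPO1, a secreted amplifier of WNT signalling, was at 57.9 and 67.3 CPM with ERG, against 6.53 and 6.96 CPM with Empty (log2 change 3.22, adjusted p = 2.88e-19). RSPO1 was also higher against GFP Empty, but by 1.22. CDC42EP5, an effector of the GTPase CDC42, was at 6.09 and 6.54 CPM with ERG, against 0.867 and 0.790 CPM with Empty (log2 change 2.92), and by 1.14 higher against GFP Empty. Some steep rises were called only against the mutant's own Empty libraries. SCART1, PMCH and LENG9 rose by 2.50, 2.49 and 2.42, yet lay at -0.04, -0.10 and 0.22 against GFP Empty, where none of them was called. MALAT1 rose by 3.62 and was also called higher against GFP Empty, but by 0.38.

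**Figure D3:**
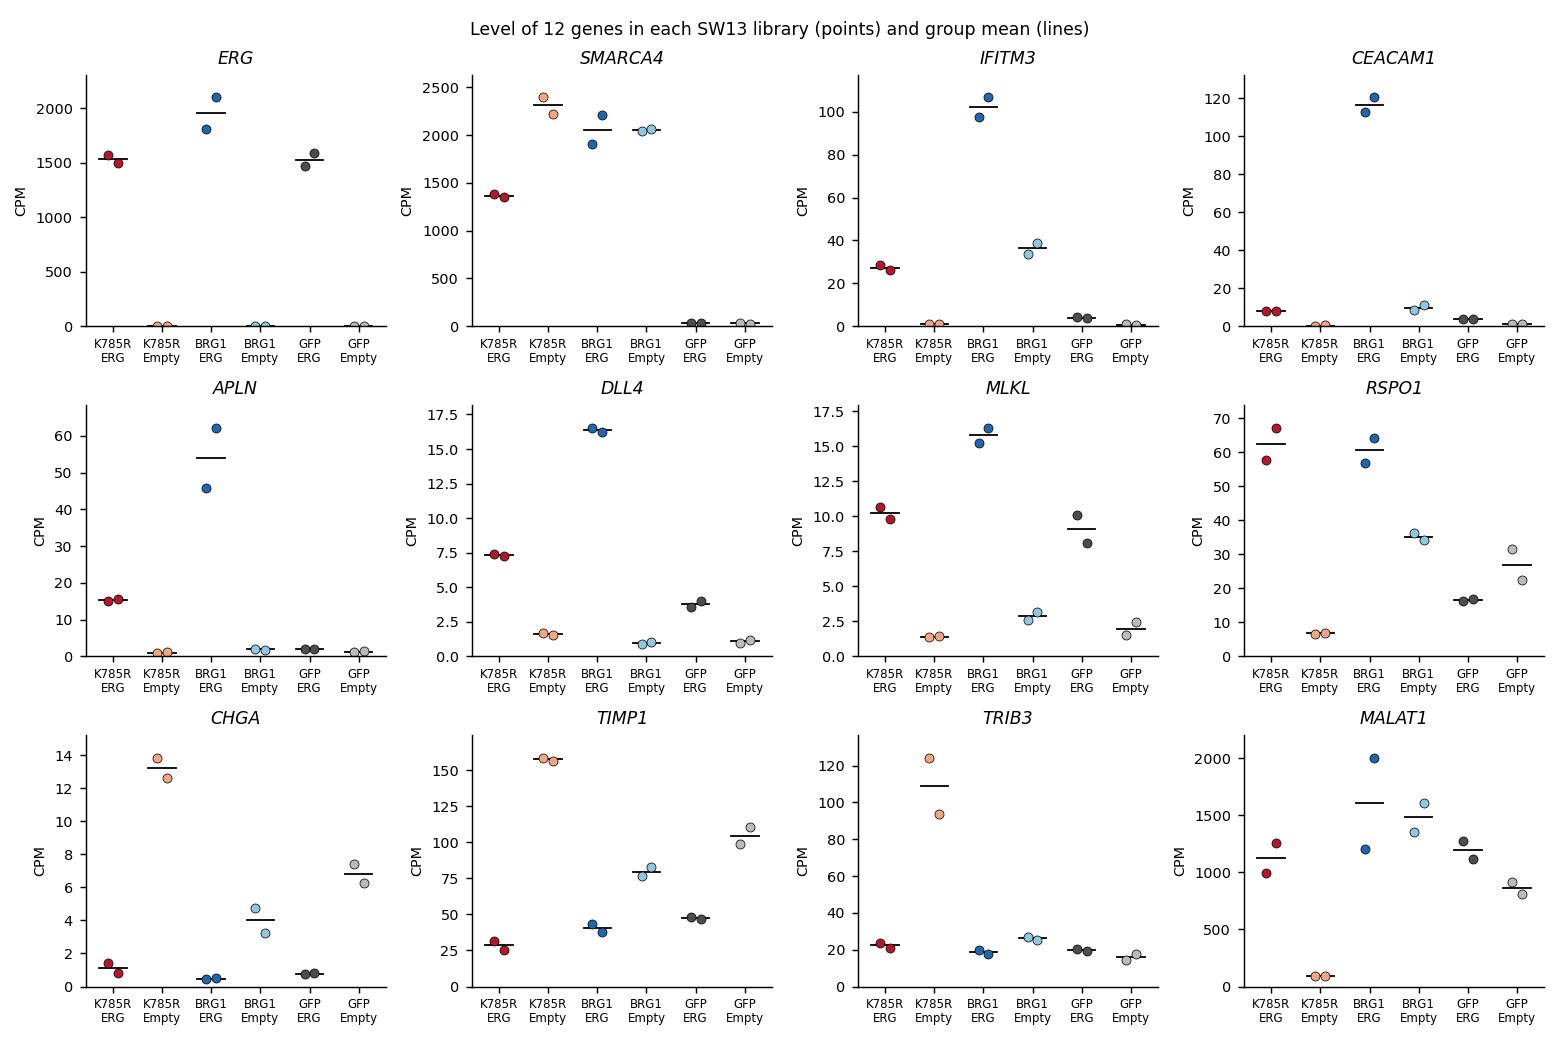
Level in CPM of 12 genes in each of the 12 SW13 libraries, with points for libraries and a line at the mean of each group. For each construct the ERG libraries stand left of the Empty libraries. IFITM3, CEACAM1, APLN, DLL4 and MLKL are higher with ERG than with Empty in the mutant libraries and low in the GFP Empty libraries. All of them are highest in the BRG1 ERG libraries. TRIB3 (124 and 93.9 CPM) and MALAT1 (88.8 and 94.2 CPM) stand apart in the BRG1-K785R Empty libraries.

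Of 26 endothelial genes tested, out of 30 listed, 9 rose and 1 fell beside the mutant, with a median log2 change of 0.75. The other 16 were not called, and of all genes 25.3% rose and 30.9% fell. The 9 include ERG itself. DLL4, a NOTCH ligand of vessel sprouts, was at 7.42 and 7.26 CPM in BRG1-K785R ERG libraries, against 1.69 and 1.53 CPM in BRG1-K785R Empty libraries (log2 change 2.18, SE 0.192, adjusted p = 3.29e-11, and 2.76 against GFP Empty). TEK, the angiopoietin receptor, was at 29.1 and 25.3 CPM with ERG, against 12.5 and 12.2 CPM with Empty (log2 change 1.13, and 0.34 against GFP Empty). ENG, a co-receptor for TGF-beta ligands, was at 1.83 and 1.86 CPM with ERG, against 0.744 and 0.543 CPM with Empty (log2 change 1.50, and 0.71 against GFP Empty). FLT4, the receptor of lymphatic growth factors, was at 49.0 and 49.6 CPM with ERG, against 35.6 and 29.9 CPM with Empty (log2 change 0.59, and 0.70 against GFP Empty). MMRN2 and ECSCR also rose, by 1.30 and 3.39, with Empty levels under 1 CPM. TIE1, a receptor related to TEK, was called higher at 0.495 and 0.621 CPM with ERG, against 0.0413 and 0.0988 CPM with Empty, which rest on 1 and 2 reads. The gene that fell was EGFL7, a secreted vessel protein, by 0.48. Against GFP Empty, 13 of the 26 were higher and 2 lower, with a median of 0.98. The whole list, ERG left in, had 3 members at 0 reads in all 4 mutant libraries.

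Beside BRG1, 20 of the 26 rose and 1 fell with a median of 1.93, where 22.6% of all genes rose and 22.8% fell. Beside GFP 6 rose and none fell with a median of 0.61, where 12.6% of all genes rose and 13.5% fell. The test of the difference called 9 endothelial genes with a lower ERG effect beside the mutant than beside BRG1 and 2 with a higher one, where 25.8% of all genes were lower and 20.4% higher. The 2 were TEK and ERG itself. The difference for ERG rests on its Empty reads, 0 in both mutant libraries against 6 and 1 in the BRG1 libraries. KDR, the main VEGF receptor, averaged 23.6 CPM in BRG1 ERG libraries and 1.04 CPM in BRG1 Empty libraries. Beside the mutant, KDR was at 2.82 and 2.72 CPM with ERG, against 1.53 and 2.27 CPM with Empty, which was not called (log2 change 0.56, adjusted p = 0.0795), and the effects differed (adjusted p = 6.79e-10). For DLL4 the effect beside the mutant was lower than beside BRG1, by a difference of -1.89 (adjusted p = 4.28e-06) and was not called different from that beside GFP (0.38, SE 0.316, adjusted p = 0.363). For APLN it was lower than beside BRG1, by a difference of -0.85 (adjusted p = 0.0321) and larger by 3.28 than beside GFP (adjusted p = 2.39e-08), where the gene was not called (adjusted p = 0.0511). TEK was the reverse case, with an effect larger by 0.70 than beside BRG1 (adjusted p = 0.000207). The window before APLN is shown because, after ERG itself, it was the endothelial gene with the steepest called rise. The marking is as above.
APLN, chrX:129654957-129655206, minus strand: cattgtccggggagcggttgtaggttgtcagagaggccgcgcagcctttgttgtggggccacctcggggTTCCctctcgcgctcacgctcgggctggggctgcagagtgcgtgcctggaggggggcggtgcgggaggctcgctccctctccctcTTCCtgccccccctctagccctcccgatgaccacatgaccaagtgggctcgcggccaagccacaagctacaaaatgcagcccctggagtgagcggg
It held 2 matches to GGAA or TTCC and none to CCGGAA or GAAANNGAA.

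Interferon-stimulated genes, the antiviral programme that interferons switch on, rose in part. Of 35 tested, out of 36 listed, 17 rose and 2 fell, with a median log2 change of 0.68. The list summed to 436 and 424 CPM with ERG against 318 and 326 CPM with Empty. In the GFP Empty libraries it summed to 398.2 and 410.5 CPM, closer to the sums with ERG. IFIH1, a sensor of viral RNA, was at 11.1 and 10.3 CPM in BRG1-K785R ERG libraries, against 3.30 and 3.85 CPM in BRG1-K785R Empty libraries (log2 change 1.59, adjusted p = 2.26e-11, and 1.83 against GFP Empty). STAT2, a transcription factor of the interferon response, was at 122 and 141 CPM with ERG, against 83.1 and 81.6 CPM with Empty (log2 change 0.68, and 0.48 against GFP Empty). DDX58, another RNA sensor, rose by 0.72 and was not called against GFP Empty (0.16). IFIT1, among the most inducible genes of the programme, was at 0.643 and 0.955 CPM with ERG, against 0.537 and 0.445 CPM with Empty, and was not called (adjusted p = 0.183). Beside BRG1, IFIT1 averaged 392 CPM with ERG and 130 CPM with Empty. Against GFP Empty, 13 of the 35 were higher and 3 lower, with a median of 0.53. Beside BRG1, 31 rose and 2 fell, and beside GFP 8 rose and 1 fell. The difference between the effects was called for 6 of the 35 in each direction against BRG1, and for 6 higher and 1 lower against GFP. These counts are near or below the shares of all genes, which were 20.4% higher and 25.8% lower against BRG1, and 17.5% higher and 22.4% lower against GFP.

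Members of the ETS family were divided. Of 22 tested, 4 rose and 9 fell, with a median of -0.09 that turned to 0.10 with library totals. The 4 were ERG, GABPA (by 0.80), ETV6 (by 0.79) and ETV1 (by 0.51), and ETV1 was lower against GFP Empty, at -0.37. Against GFP Empty 7 of the 22 were higher and 6 lower. ETS1, a relative of ERG, was at 4.95 and 3.96 CPM with ERG, against 11.9 and 13.9 CPM with Empty (log2 change -1.53), and lay at -0.41 against GFP Empty. Of 31 genes for BAF subunits, all tested, 3 rose and 13 fell, with a median of -0.11 that turned to 0.08 with library totals, and 4 were higher and 10 lower against GFP Empty. DPF2, a subunit with PHD fingers, was at 95.7 and 86.8 CPM with ERG, against 197 and 183 CPM with Empty (log2 change -1.06), and SMARCD1 at 84.2 and 88.3 CPM with ERG, against 179 and 170 CPM with Empty (log2 change -1.01). Neither was called against GFP Empty (0.16 and 0.01). SMARCA2, the other ATPase of the complex, was at or under 1 CPM in all 4 libraries. Of 18 genes tested from a list reported high in ERG-positive prostate tumours, 7 rose, ERG among them, and 2 fell, with a median of 0.37 and of 0.87 against GFP Empty. The list of 10 genes reported to return with BRG1 had 4 that rose and 3 that fell, with a median of -0.13 that turned to 0.06 with library totals. Against GFP Empty 7 of these 10 were higher and none lower, with a median of 2.00.

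The steepest falls at 5 CPM or more were led by CHGA, chromogranin A, a protein of hormone granules. CHGA was at 1.44 and 0.812 CPM in BRG1-K785R ERG libraries, against 13.8 and 12.6 CPM in BRG1-K785R Empty libraries. The groups were far apart, and the gene fell by 3.56 on the log2 scale (SE 0.226, adjusted p = 2.40e-14) and by 2.60 against GFP Empty. CHGA also fell by 3.04 beside BRG1 and by 3.12 beside GFP. The effect beside the mutant was not called different from either, with differences of -0.52 (SE 0.445, adjusted p = 0.356) and -0.44 (SE 0.396, adjusted p = 0.406). Its upstream window is shown because the gene fell beside every construct.
CHGA, chr14:92922900-92923149, plus strand: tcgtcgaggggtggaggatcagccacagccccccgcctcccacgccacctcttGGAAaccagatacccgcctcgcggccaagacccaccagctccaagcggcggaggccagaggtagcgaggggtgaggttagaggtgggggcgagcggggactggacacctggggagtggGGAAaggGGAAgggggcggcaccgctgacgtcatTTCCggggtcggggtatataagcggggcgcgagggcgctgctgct
It held 4 matches to GGAA or TTCC, 1 of them within CCGGAA, and none to GAAANNGAA. Of 17 neuroendocrine genes tested, out of 28 listed, 5 rose and 7 fell, with a median of 0.15. Against GFP Empty 10 of the 17 were lower and 2 higher, with a median of -0.72.

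TIMP1, an inhibitor of matrix metalloproteases, was at 31.7 and 25.4 CPM in BRG1-K785R ERG libraries, against 159 and 156 CPM in BRG1-K785R Empty libraries (log2 change -2.47, SE 0.0916, adjusted p = 3.85e-20). It was lower against GFP Empty as well, at -1.87, and it fell by 0.96 beside BRG1 and by 1.14 beside GFP. The fall beside the mutant was larger than both, with differences of -1.50 (adjusted p = 4.96e-11) and -1.33 (adjusted p = 5.55e-10). MMP10, a stromelysin that degrades matrix, was at 94.6 and 80.4 CPM with ERG, against 270.0 and 284 CPM with Empty (log2 change -1.67), with -1.73 against GFP Empty. MMP3, a close relative, was at 1.29 and 1.29 CPM with ERG, against 5.41 and 5.53 CPM with Empty (log2 change -2.08), with -2.15 against GFP Empty. MMP1, a collagenase, fell by 1.03 and lay at 0.12 against GFP Empty. Of 28 matrix proteases and inhibitors tested, 7 rose and 14 fell, with a median of -0.43, while against GFP Empty 12 were higher and 9 lower with a median of 0.12. ADAMTS4, a protease of cartilage matrix, was among those that rose, with 2.13 and 1.34 CPM with ERG against 0.372 and 0.148 CPM with Empty (log2 change 2.66, and 2.14 against GFP Empty).

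Other steep falls differed in how they stood against GFP Empty. NID1, a basement membrane protein, was at 1.63 and 1.62 CPM with ERG, against 9.34 and 9.98 CPM with Empty (log2 change -2.56), and lay at -0.19 against GFP Empty. GPC4, a heparan sulfate proteoglycan, was at 10.1 and 10.6 CPM with ERG, against 50.7 and 44.0 CPM with Empty (log2 change -2.20), and was higher by 1.17 against GFP Empty. SRPX2, a secreted protein, fell by 2.72 but had 0 reads in both GFP Empty libraries. ZNF853, a zinc finger gene, fell by 2.15 and was lower against GFP Empty too, at -1.07, and HRNR, which encodes the skin protein hornerin, fell by 2.10 and lay at -1.50.

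Genes of the integrated stress response formed a list that fell without exception among its called members. ATF4, the transcription factor made when cells lack amino acids or fold proteins badly, switches on genes for amino acid synthesis and transport. Of 25 of its targets tested, out of 26 listed, 19 fell and none rose, with a median log2 change of -0.87. TRIB3, a pseudokinase, was at 23.6 and 21.0 CPM in BRG1-K785R ERG libraries, against 124 and 93.9 CPM in BRG1-K785R Empty libraries (log2 change -2.29, SE 0.108, adjusted p = 2.31e-17). CHAC1, which breaks down glutathione, was at 4.06 and 3.01 CPM with ERG, against 20.8 and 14.8 CPM with Empty (log2 change -2.34). ASNS, asparagine synthetase, was at 150 and 128 CPM with ERG, against 463 and 426 CPM with Empty (log2 change -1.68). SESN2, a stress sensor, fell by 1.85, SLC7A5, an amino acid transporter, by 1.46, and DDIT3, the factor CHOP, by 1.25. ATF4 itself was at 184 and 196 CPM with ERG, against 379.7 and 314 CPM with Empty (log2 change -0.87).

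The fall of these ATF4 targets was seen against the BRG1-K785R Empty libraries and not against GFP Empty. Against GFP Empty 8 of the 25 were higher and 4 lower, with a median of 0.14, and TRIB3 was higher by 0.46, CHAC1 by 1.20, DDIT3 by 0.57, SESN2 by 0.45 and ATF4 by 0.60. ASNS and SLC7A5 were not called there (0.14 and -0.08). TRIB3 averaged 18.8 CPM in BRG1 ERG and 26.2 CPM in BRG1 Empty libraries, and 19.6 CPM in GFP ERG and 16.2 CPM in GFP Empty libraries, so the 2 mutant Empty libraries were the highest of all 12. The ERG effect was lower beside the mutant than beside BRG1 for 19 of the 25 and than beside GFP for 15, where 25.8% and 22.4% of all genes were lower, and it was higher for none.

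Heat shock chaperones, which refold damaged proteins, were also mostly lower against the mutant's own Empty libraries. Of 17 tested, 1 rose and 13 fell, with a median of -0.37, and against GFP Empty 8 were higher and 3 lower. Unlike most ATF4 targets, 10 of the 17 also fell beside GFP and none rose, where 13.5% of all genes fell. Beside BRG1, 8 rose and 1 fell, where 22.6% of all genes rose and 22.8% fell. BAG3, a co-chaperone, was at 76.2 and 73.2 CPM in BRG1-K785R ERG libraries, against 194 and 196 CPM in BRG1-K785R Empty libraries (log2 change -1.39, and 0.26 against GFP Empty). CRYAB, a small heat shock protein, was at 1.83 and 2.15 CPM with ERG, against 9.54 and 10.3 CPM with Empty (log2 change -2.31, and 0.46 against GFP Empty, which was not called). HSPA1A fell by 1.43 and was higher by 0.66 against GFP Empty, but it shares reads with its near-identical neighbour HSPA1B. Of 17 targets of NRF2, the factor of the oxidant response, 1 rose and 12 fell, with a median of -0.56, and 4 were higher and 7 lower against GFP Empty. HMOX1, which degrades haem, was at 37.6 and 37.3 CPM with ERG, against 178 and 103 CPM with Empty (log2 change -1.91, and 0.37 against GFP Empty). The Empty libraries differed from each other in HMOX1 more than the ERG libraries did, and the groups did not overlap. FTL and FTH1, the ferritin chains that store iron, fell by 1.02 and 0.88 and were not called against GFP Empty (-0.13 and -0.12). Beside BRG1, HMOX1 rose by 1.54, and the effects differed by -3.45 (adjusted p = 1.15e-14).

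Genes of growth signalling were mostly lower with ERG. Of 24 AP-1 and immediate early genes tested, 2 rose and 15 fell, with a median of -0.50, and 6 were higher and 9 lower against GFP Empty. FOSL1, a FOS family member, was at 9.05 and 10.8 CPM in BRG1-K785R ERG libraries, against 31.3 and 28.1 CPM in BRG1-K785R Empty libraries (log2 change -1.58, and -0.79 against GFP Empty). JUN was at 24.1 and 27.1 CPM with ERG, against 53.6 and 47.9 CPM with Empty (log2 change -0.99), but was higher by 0.65 against GFP Empty. EGR1 fell by 0.45, and FOS by 1.00, and both were lower against GFP Empty. Of 21 genes that dampen ERK signalling, 2 rose and 12 fell, with a median of -0.42, and 6 were higher and 9 lower against GFP Empty. SPRY2, an inhibitor of receptor tyrosine kinase signals, was at 253 and 256 CPM with ERG, against 403 and 385 CPM with Empty (log2 change -0.63, and -0.96 against GFP Empty).

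Targets of YAP and SRF, factors that respond to cell tension and actin, had 18 that fell and 3 that rose among 24, with a median of -0.62, and 10 lower and 7 higher against GFP Empty. CTGF, a matricellular YAP target, was at 874 and 865 CPM in BRG1-K785R ERG libraries, against 1478 and 1451 CPM in BRG1-K785R Empty libraries (log2 change -0.75, and -1.54 against GFP Empty). ACTB, the actin that is also a BAF subunit, fell by 0.97 and lay at -0.43 against GFP Empty. AMOTL2, a junction protein, fell by 1.03 and was at 0.09 against GFP Empty.

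Cell cycle genes also fell. Of 32 DNA replication genes 22 fell and 2 rose, with a median of -0.40, and of 32 mitotic genes 20 fell and 5 rose, with a median of -0.45. CDT1, which licenses replication origins, was at 61.3 and 63.0 CPM in BRG1-K785R ERG libraries, against 132 and 114 CPM in BRG1-K785R Empty libraries (log2 change -0.99). MCM5, a subunit of the replicative helicase, was at 53.8 and 55.9 CPM with ERG, against 101 and 91.5 CPM with Empty (log2 change -0.81). CDC20, an activator of the anaphase-promoting complex, was at 98.1 and 92.4 CPM with ERG, against 206 and 196 CPM with Empty (log2 change -1.08). PLK1, a mitotic kinase, fell by 1.06. Against GFP Empty PLK1 was lower, at -0.53, while CDT1, MCM5 and CDC20 were not called (0.14, 0.03 and -0.13). The 5 mitotic genes that rose were TTK, CDK1, CENPE, HMMR and MAD2L1, by 0.28 to 0.50, and none of them was higher against GFP Empty. Against GFP Empty 14 replication genes were lower and 2 higher (median -0.15), and 22 mitotic genes were lower and none higher (median -0.35). Both lists fell beside the other constructs too, with 28 replication genes lower beside BRG1 and 26 beside GFP, and 24 mitotic genes lower beside BRG1 and 18 beside GFP. CDK inhibitors and D-type cyclins had 3 that rose and 5 that fell of 13, with a median of -0.14 that turned to 0.05 with library totals, and 6 higher and 5 lower against GFP Empty. Of 24 p53 targets 6 rose and 7 fell (median 0.11), and 5 were higher and 5 lower against GFP Empty. Of 15 histone genes tested, whose copies share reads and which mostly lack polyA tails, 8 fell and none rose (median -0.52), while against GFP Empty 3 were higher and 3 lower (median 0.07).

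Metabolic lists were divided. Of 28 glycolysis and hypoxia genes, 7 rose and 15 fell (median -0.31), and 24 were lower and 1 higher against GFP Empty (median -0.93). SLC2A3, a glucose transporter, was at 423 and 373 CPM in BRG1-K785R ERG libraries, against 149 and 161 CPM in BRG1-K785R Empty libraries (log2 change 1.36, SE 0.0776). It rose by 1.27 beside BRG1 and by 1.20 beside GFP, and neither difference was called (adjusted p = 0.569 and 0.26), while against GFP Empty it was at 0.17. Of 39 cytosolic ribosomal protein genes 17 rose and 13 fell (median 0.09), and of 32 oxidative phosphorylation genes 8 rose and 12 fell, with a median of -0.10 that turned to 0.09 with library totals. Against GFP Empty none of the ribosomal protein genes was higher and 16 were lower, and of the oxidative phosphorylation genes 1 was higher and 20 were lower (median -0.26). Of 22 cholesterol synthesis genes 6 rose and 7 fell, with a median of -0.13 that turned to 0.06 with library totals, while 12 were higher and 1 lower against GFP Empty (median 0.24). Of 14 metallothioneins and zinc transporters 5 rose and 5 fell, with a median of -0.10 that turned to 0.09 with library totals, and 4 were higher and 4 lower against GFP Empty.

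The lists of cell identity and of signalling families were divided. Of 16 basal and hemidesmosome genes tested 4 rose and 5 fell (median -0.63), where the keratins KRT5 and KRT6A rested on few reads, and 6 were higher and 1 lower against GFP Empty. Of 21 luminal and junction genes 7 rose and 5 fell (median 0.32), and 8 were higher and 3 lower against GFP Empty. KRT18, a keratin of simple epithelia, was at 16.0 and 15.1 CPM in BRG1-K785R ERG libraries, against 4.83 and 4.94 CPM in BRG1-K785R Empty libraries (log2 change 1.67, and 3.10 against GFP Empty). Of 29 mesenchymal and matrix genes 6 rose and 7 fell (median -0.20), and 6 were higher and 7 lower against GFP Empty. SPARC, a collagen-binding matrix protein, was at 4.65 and 3.53 CPM with ERG, against 0.124 and 0.247 CPM with Empty (log2 change 4.46, and 2.38 against GFP Empty), and VIM, the mesenchymal filament vimentin, fell by 1.08 (-0.18 against GFP Empty, not called). Of 33 HOX genes 10 rose and 9 fell (median 0.30), with 12 higher and 2 lower against GFP Empty. Of 26 semaphorins and receptors 10 rose and 6 fell (median 0.15), with 10 higher and 7 lower against GFP Empty. Of 29 WNT pathway genes 5 rose and 9 fell (median 0.02), with 13 higher and 7 lower against GFP Empty. Of 31 TGF-beta, activin and BMP genes 10 rose and 9 fell, with a median of -0.02 that turned to 0.17 with library totals, and 14 were higher and 4 lower against GFP Empty. Of 18 NF-kB targets and chemokines 3 rose and 3 fell (median 0.00), and 7 were higher and 3 lower against GFP Empty. Of 15 nuclear-retained RNAs 9 rose and 3 fell (median 0.46), a list led by MALAT1 and NEAT1, and 5 were higher and 1 lower against GFP Empty.

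**Figure D4:**
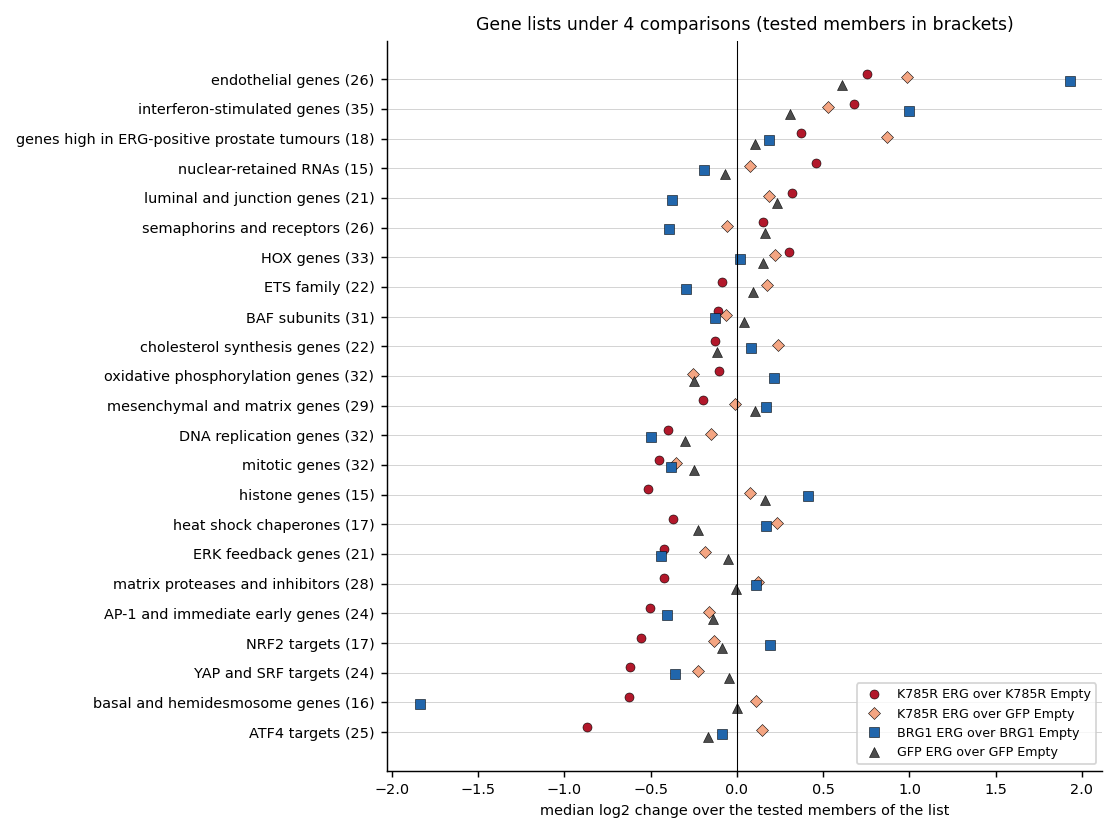
Median log2 change over the tested members of 23 gene lists, with the number tested in brackets, for 4 comparisons. Endothelial and interferon-stimulated genes lie right of 0 in all 4, while the ATF4 targets lie at -0.87 against the mutant's own Empty libraries and at 0.14 against GFP Empty.

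The ERG effect beside the mutant was then set against the effects beside BRG1 and beside GFP, which share no library with it. Beside BRG1, ERG changed 7724 genes (45.4%), with 3852 higher (22.6%) and 3872 lower (22.8%). Beside GFP it changed 4433 genes (26%), with 2141 higher (12.6%) and 2292 lower (13.5%). Of the genes that rose beside the mutant, 1417 also rose beside BRG1, 32.9% of the mutant's and 36.8% of BRG1's list, and 982 also rose beside GFP, 22.8% of the mutant's and 45.9% of GFP's list. Of those that fell, 1920 also fell beside BRG1 (36.5% and 49.6%) and 1203 beside GFP (22.9% and 52.5%). Opposite calls also occurred, with 674 genes that rose beside the mutant and fell beside BRG1 and 733 the other way round. Against GFP these counts were 397 and 480. As parts of the 4309 genes that rose and 5254 that fell beside the mutant, all lie below the matching shares of all genes. Those shares were 22.8% that fell and 22.6% that rose beside BRG1, and 13.5% and 12.6% beside GFP. All 3 effects called 352 genes higher, which was 8.17% of the mutant's list, 9.14% of BRG1's and 16.4% of GFP's. They called 457 lower (8.7%, 11.8% and 19.9%).

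The tests of the difference called 7863 genes against BRG1 (46.2%), with 3473 higher beside the mutant (20.4%) and 4390 lower (25.8%), and 6776 genes against GFP (39.8%), with 2971 higher (17.5%) and 3805 lower (22.4%). The share higher among called genes was 44.2% against BRG1 and 43.8% against GFP under TMM, but 70.1% and 59.8% with library totals, which moved the medians of all genes by 0.23 and 0.13. COL17A1, a hemidesmosome collagen, was at 0.742 and 0.621 CPM with ERG against 0.578 and 0.494 CPM with Empty, while beside BRG1 it averaged 4.02 CPM with ERG and 40.9 CPM with Empty (difference of effects 3.68, adjusted p = 1.16e-07). SGK1, a kinase induced by stress hormones, was at 1.34 and 1.53 CPM with ERG beside the mutant, against 2.23 and 2.02 CPM with Empty, while beside BRG1 it averaged 33.8 CPM with ERG and 1.82 CPM with Empty (difference -4.79, adjusted p = 1.78e-13). For both genes the change beside the mutant was not called. RSPO1, which rose beside the mutant, fell beside GFP, averaging 16.7 CPM with ERG and 26.9 CPM with Empty (difference 3.90, adjusted p = 2.04e-17).

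**Figure D5:**
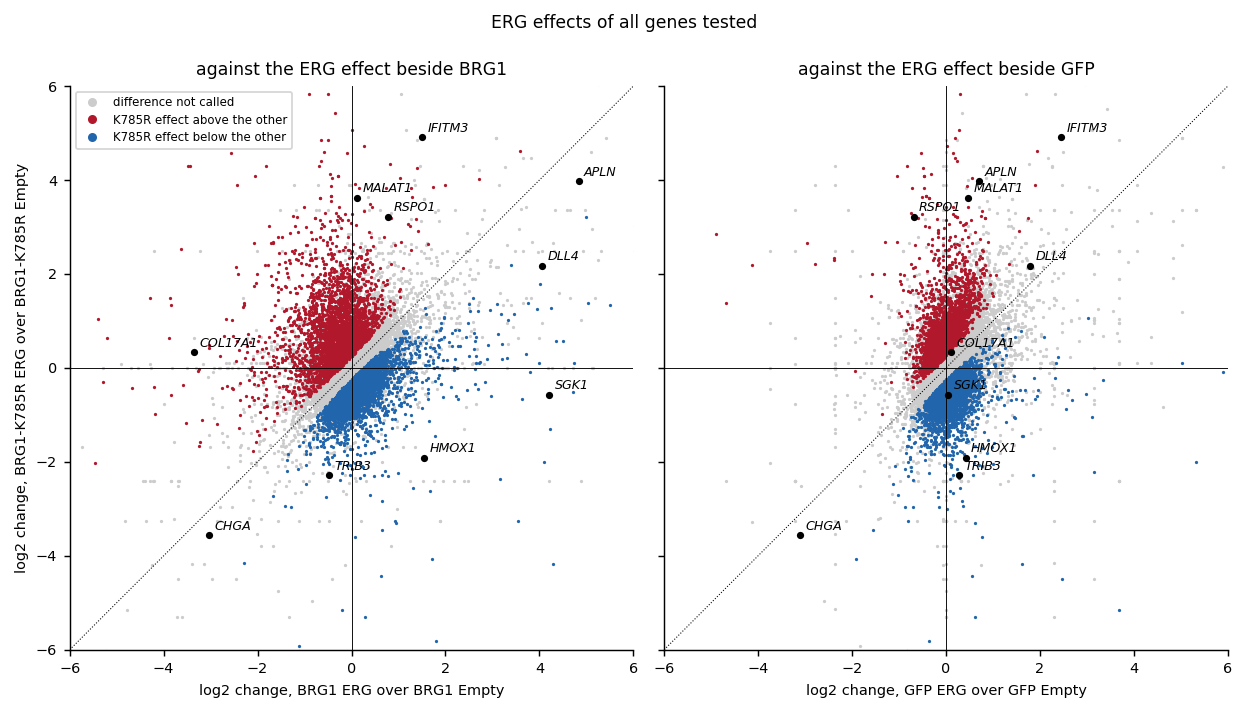
Log2 ERG effect beside BRG1-K785R (vertical axis) against that beside BRG1 (left panel) and beside GFP (right panel), with 1 point per gene tested and axes from -6 to 6, beyond which genes are left out. Red and blue mark genes whose effects differed at an adjusted p under 0.05. CHGA lies near the diagonal in both panels, SGK1 and COL17A1 lie far off it in the left panel, and RSPO1 and MALAT1 lie above it in both.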

How the data were processed

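PolyA RNA of SW13 cells was sequenced in 12 libraries, 2 for each of 6 groups, and groups were taken from the titles. Per library, the authors deposited whole-number read counts per gene, a gene length in bases and an RPKM value. The deposited counts were tested as they are. Dividing the counts by library total and length gives the deposited RPKM column (largest relative gap 5e-06), which served as a check of the file layout. Alignment with STAR 2.3.1 and the build hg19 are known per the submitters' processing notes. How reads were counted, with which annotation and strand, is not given in the sources used here. Reads of overlapping or antisense genes therefore cannot be told apart.

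The 12 libraries were fitted together with edgeR 4.0.16 in R 4.3.3, with TMM scaling, filterByExpr by group (17018 of 26346 genes kept), a quasi-likelihood F test, two-sided, and Benjamini-Hochberg adjustment at 0.05. Floors (3 reads per library) cover counting error only. Contrasts were ERG over Empty beside BRG1-K785R, the same beside BRG1 and GFP, and the differences between these effects. The labels give 2 independent cultures per group, so the shared replicate numbers were not taken as pairs. The correlation of deviations between same-numbered libraries was -0.248 for BRG1-K785R ERG and Empty. Between pairs of groups it ran from -0.278 (BRG1-K785R ERG and GFP Empty) to 0.386 (BRG1-K785R ERG and BRG1 ERG). It was also positive for BRG1-K785R ERG and BRG1 Empty (0.352) and for BRG1 ERG and Empty (0.191). The scripts were tested on simulated data. Alternatives were scaling, filters, DESeq2 1.42.0, fewer libraries, a replicate block and leaving out each library. Against GFP Empty, removal of composition genes and a crossed block were added after seeing the data.

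Of 870 genes in 35 lists, 868 were found. The genes and lists were chosen with earlier results of these data known. Named genes were ERG and SMARCA4, the 12 largest called rises and falls with at least 5 CPM in the higher group and no overlap, up to 4 called members per list by adjusted p, and the 8 largest differences of effects in each direction. Other list members were chosen after their values were seen. Clone, pseudogene and small RNA names were left out, and 1 list member is not reported here. Upstream windows are from RefSeq, GRCh38.p14. Tables used pandas 2.3.3 and numpy 2.4.6, figures matplotlib 3.10.9, all in Python 3.11.15.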

Additional observations from a re-analysis of the deposited data

Results flagged for a closer look

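The results below were singled out because the test of the difference between ERG effects was called at an adjusted p under 0.05 (edgeR). Against the effect beside BRG1, 3473 genes had a higher and 4390 a lower ERG effect beside BRG1-K785R, and against that beside GFP the counts were 2971 and 3805. Groups of 2 libraries were too small for a search for single outlying libraries.

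Against BRG1, the log2 differences of named genes were 3.52 for IFITM1, 4.23 for SCEL, 3.68 for COL17A1 and -4.79 for SGK1. For SCEL, COL17A1 and SGK1 the change lay beside BRG1, since none of them was called beside the mutant (adjusted p = 0.452, 0.513 and 0.0543).

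Against GFP, the positive differences were 2.47 for IFITM3, 2.70 for CEACAM1, 3.28 for APLN, 3.15 for MALAT1, 3.90 for RSPO1, 2.80 for PMCH, 2.62 for MUC6 and 2.59 for SNHG19. The negative ones were -2.86 for NID1, -2.61 for CHAC1, -2.57 for TRIB3, -2.86 for HRNR, -1.99 for SESN2, -2.33 for HMOX1, -2.13 for POTEJ and -2.05 for POTEI. POTEI and POTEJ carry an actin-derived stretch, so their reads may be shared with ACTB. MUC6, SNHG19, PMCH and MALAT1 lay at -0.08, -0.05, -0.10 and 0.38 when BRG1-K785R ERG was set against GFP Empty, so their size is seen against the BRG1-K785R Empty libraries, which stood apart in RNA composition. In the same comparison CHAC1, TRIB3, SESN2 and HMOX1 were higher, by 1.20, 0.46, 0.45 and 0.37, and NID1 was not called (-0.19). For them too the size is seen against the BRG1-K785R Empty libraries. HRNR stayed lower, at -1.50, and IFITM3, CEACAM1, APLN and RSPO1 stayed higher, by 5.25, 3.02, 3.61 and 1.22. The part of the RNA composition in these differences was not tested.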

How the results depend on the processing

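Leaving aside the settings added after seeing the data, 120 counts stayed within 1.5 times the main count and 6 did not, and with the added ones 15 more stayed. This compares the size of a count and not which genes are in it. Against GFP Empty 7752 genes were called, of which 5045 were among the 9563 of the main test, not all in the same direction. List medians were less steady, with 322 moved by more than the spread between replicates and 413 not, and 26 and 43 in the added settings. With library totals, 3441 genes fell beside BRG1-K785R, and against BRG1 5316 effects were higher and 2265 lower. A change of at least 2-fold left 1914 genes, 1300 higher and 614 lower. DESeq2 called 8595 genes for the ERG effect, and removing 2357 composition genes left 9357. With the replicate block the counts were 9528 for the ERG effect, 7826 against BRG1 and 6747 against GFP, and the crossed block gave 9579. Leaving out each library in turn gave 8049 to 8872 genes for the ERG effect (3486 to 3913 higher, 4563 to 4959 lower), 6506 to 7745 against BRG1 (2844 to 3330 higher, 3662 to 4415 lower) and 5602 to 6362 against GFP (2428 to 2742 higher, 3174 to 3664 lower). No named gene changed direction under the other scalings, filters, tools, blocks and sets of libraries run on it, but several did against GFP Empty, TRIB3, CHAC1, GPC4, SESN2 and HSPA1A among them. In 17 planned cases a gene was no longer called: KLK2 without BRG1-K785R Empty 1, and differences from BRG1 of ERG, UBD, GABRP, APOL3, KIAA1210, CD93, COLCA1 and CPA4, which have few reads or none in 1 group. The cause was not tested. Depth limits genes with few reads: the Empty values of IFITM1, SPARC, ECSCR and ADAMTS4 lie near the floor of 3 reads per library, so their log2 changes are imprecise. The same limit applies to CEACAM1, with 4 and 10 reads in the BRG1-K785R Empty libraries.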
